A study of Homo sapiens with 29 samples.

Results

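The genes described here are 37 direct targets of the transcription factor p53, other than CDKN1A, MDM2, the death receptors, the sestrins and BTG2. They were chosen by name from established p53 targets, with earlier results of these data known. Rows of the gene tables were matched to them by Ensembl identifier. Of the 37 genes, 35 were measured in the comparison of Mps1i with DMSO, among 10577 genes. The same 35 were measured in the comparison of MN+ with MN-, among 10594 genes, and 32 in the comparison of rupture+ with rupture-, among 9461. ACER2 and SULF2 were in none of the tables and are not analysed here, and EDA2R, SPATA18 and CMBL were not in the rupture table.

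p53 is held at low levels in unstressed cells by the ubiquitin ligase MDM2, and it accumulates after DNA damage and other stresses, among them chromosome missegregation. It binds DNA as a tetramer, at pairs of a decamer with the core bases C and G around a short AT-rich centre, and raises transcription of the genes nearby. Its targets act in cell cycle arrest, DNA repair, cell death, metabolism and the feedback on p53 itself, and the RPE1 line keeps a functional p53.

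RNA was sequenced from RPE1 cells, a human line of retinal pigment epithelial origin immortalised with telomerase, after visual cell sorting, in which nuclei picked by image analysis are labelled by a UV pulse of 200 or 800 ms and then sorted by colour. One transduced line was used for all groups. It carries NLS-3xDendra2, which the pulse turns from green to red, and H2B-emiRFP703, which marks chromatin. In all groups, the methods describe 10 µM RO-3306, an inhibitor of Cdk1, in the medium from 1 h before imaging.

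The first set held 4 DMSO libraries, from cells given the solvent, and 4 Mps1i libraries, from cells given 100 nM BAY1217389 for 24 h. BAY1217389 blocks the spindle checkpoint kinase Mps1, so that chromosomes missegregate and micronuclei (MN) form. The second set held 4 MN- and 4 MN+ libraries, from cells without and with micronuclei, and all of these cells had received Mps1i for 24 h. Each of these 4 groups had 1 library per pulse length in each of 2 experiments. The third set held 3 rupture- and 3 rupture+ libraries of 3 experiments (iMN and dMN in the labels, read as intact and ruptured from the pulse length that the methods give each), from synchronised and Mps1i-treated cells whose micronuclei were intact or of which at least 1 had ruptured. The sample labels give the synchronising agent as RO-3306 (10 µM for 20 h), while the methods of the study name an inhibitor of Cdk4/6, so the agent is uncertain here. Every rupture+ library was labelled with 200 ms and every rupture- library with 800 ms, so rupture and pulse length cannot be told apart in that set. MN+, MN- and rupture calls were made by an image classifier, so each group holds some misassigned cells.

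Levels are given as CPM, counts scaled to library size with TMM factors within a set. Differences were tested with edgeR (quasi-likelihood test of the condition alone), with Benjamini-Hochberg adjustment over all genes of the set and a threshold of 0.05. Total counts per library ranged from 47919780 to 145242185. Only 2 or 3 experiments stand behind the libraries of a group, so p-values measure the spread among these libraries. In bulk RNA, fewer cells that express a gene and less RNA per cell cannot be told apart. Of 10 markers fixed for the cell line, OTX2, MITF, KRT8, KRT18 and VIM were in all 3 tables, and the visual cycle and pigment genes RPE65, RLBP1, BEST1, TYR and PMEL were in none. None of 6 markers of blood, endothelium, other epithelia and cartilage was in a table.

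Because p53 binds a known sequence, the DNA within 5 kb of each member's start was searched for the p53 consensus decamer in pairs, each of 10 bases with no mismatch, with 0 to 13 bases between them. The consensus is its own reverse complement, so 1 scan covers both strands. Such a pair lay near 5 of the 35 measured members (14.3%), against 126 of 10424 measured genes in all (1.21%). Since the members were chosen as established p53 targets, a higher share is no independent evidence about them. Those members were DDB2, FBXO22, PLK2, TIGAR and ZMAT3. The sites below were chosen to show how the same pattern recurs at members whose values are described later. They come from the GRCh38 reference with GENCODE v44 starts, are written 5′ to 3′ on the strand of the gene, and have the 4 core bases of each decamer in capitals.
DDB2, chr11:47214979-47214999, plus strand, in an untranslated exon: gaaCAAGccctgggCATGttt
TIGAR, chr12:4321615-4321636, plus strand, in an intron: agaCATGtccacagaCTTGtct
ZMAT3, chr3:179070188-179070207, minus strand, in an intron: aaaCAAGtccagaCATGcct
PLK2, chr5:58462274-58462293, minus strand, upstream of the gene: aaaCATGcctggaCTTGccc
GADD45A, chr1:67686775-67686794, plus strand, in an intron: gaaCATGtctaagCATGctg
The GADD45A site came from a second search that allowed no spacer and up to 1 mismatch outside the cores, which found a pair near 4 of the 35 members (11.4%) and near 84 of the 10424 genes (0.806%). Its midpoint lies 1583 bases after the gene's start, that of ZMAT3 1612 bases after, and that of PLK2 at -2197, upstream. In the RefSeq promoter windows around the start, the pair was absent from all 29 members with an entry and present in 8 of 27305 genes (0.0293%). A match is a description of the sequence, since binding was not measured here.

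Most of the measured p53 targets were higher after Mps1 inhibition. In Mps1i against DMSO, 25 of the 35 members were called (71.4%), while 12.1% of all genes in the table were. A rise was called in 24 members, against 6.32% of all genes, and a fall in 1, against 5.76%, and 10 members did not pass. The median log2 fold change was 0.47 over the members and -0.00378 over all genes. In 13 members the change exceeded 1.5-fold, and the largest was 2.35-fold, in SPATA18. In 24 members every Mps1i library lay above every DMSO library, against 10.1% of all genes, and in 1 every Mps1i library lay below, against 9.23%. EDA2R, SPATA18, SUSD6 and HECW2 reached the minimum of 700 counts in 2 libraries only through Mps1i libraries, so their presence in the table leans towards a rise. Without these 4, 21 of 31 members rose. With the experiment as a block, 25 members rose (12.7% of all genes did) and 1 fell (11.8%), and 24.5% of all genes were called in either direction.

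Within Mps1i-treated cells, edgeR's test on the condition called no member. In MN+ against MN-, 0 of the 35 members were called, as were 0 of the 10594 genes (0%). With the well as the block, which follows the design of that experiment, edgeR called 2 members, HECW2 and TP53INP1, and 0.33% of all genes. DESeq2's likelihood ratio test called 1 member, HECW2, and 0.0472% of all genes, with the experiment as a block 4 members and 1.57% of all genes, and limma-voom called 0 members. At an unadjusted p under 0.05 there were 10 members, all higher in MN+, and 789 genes in all. The lowest adjusted p among the members was 0.641, and 0.206 with the experiment as a block, where 0.00944% of all genes were called. The log2 fold change was above 0 in 28 members and below 0 in 7, with a median of 0.16, against -4.76e-04 over all genes. All MN+ libraries lay above all MN- libraries in 7 members (20%), HECW2, EDA2R, TP53INP1, RRM2B, APAF1, E2F7 and DRAM1, against 2.43% of all genes, and in none did all lie below, against 3.14%. HECW2 and EDA2R are among 5 members, with SPATA18, SUSD6 and CMBL, that reached the minimum of counts in 1 MN- and 2 MN+ libraries. Their presence leans towards MN+, although CMBL was lower there (log2 fold change -0.0940). In experiment 2 the total counts were 136865912 and 116934561 in MN+ and 129121290 and 62831160 in MN-. The part of depth in this was not tested. Without these 5, 5 of 30 members (16.7%) had all MN+ libraries higher, and 24 of 30 had a log2 fold change above 0.

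In rupture+ against rupture-, edgeR called 0 of the 32 members and 3 of the 9461 genes (0.0317%), while DESeq2's likelihood ratio test called 1 member, SAT1, and 0.507% of all genes (0.761% with the experiment as a block), and limma-voom called 0 members. With the experiment as a block again no member passed, and 0.159% of all genes did, 0.116% higher and 0.0423% lower. At an unadjusted p under 0.05 there were 5 members, all higher in rupture+, and 847 genes in all. The log2 fold change was above 0 in 17 members and below 0 in 15, with a median of 0.00674 and a range from -0.30 to 0.49. All rupture+ libraries lay above all rupture- libraries in SAT1, CCNG2, HECW2, GADD45A and FBXO22 (15.6% of the members), against 9.58% of all genes. CCNG2 reached the minimum of counts only through rupture+ libraries, and without it the share was 4 of 31 (12.9%). FDXR alone had all rupture+ libraries below all rupture- libraries, which held for 6.7% of all genes.

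**Figure D1:**
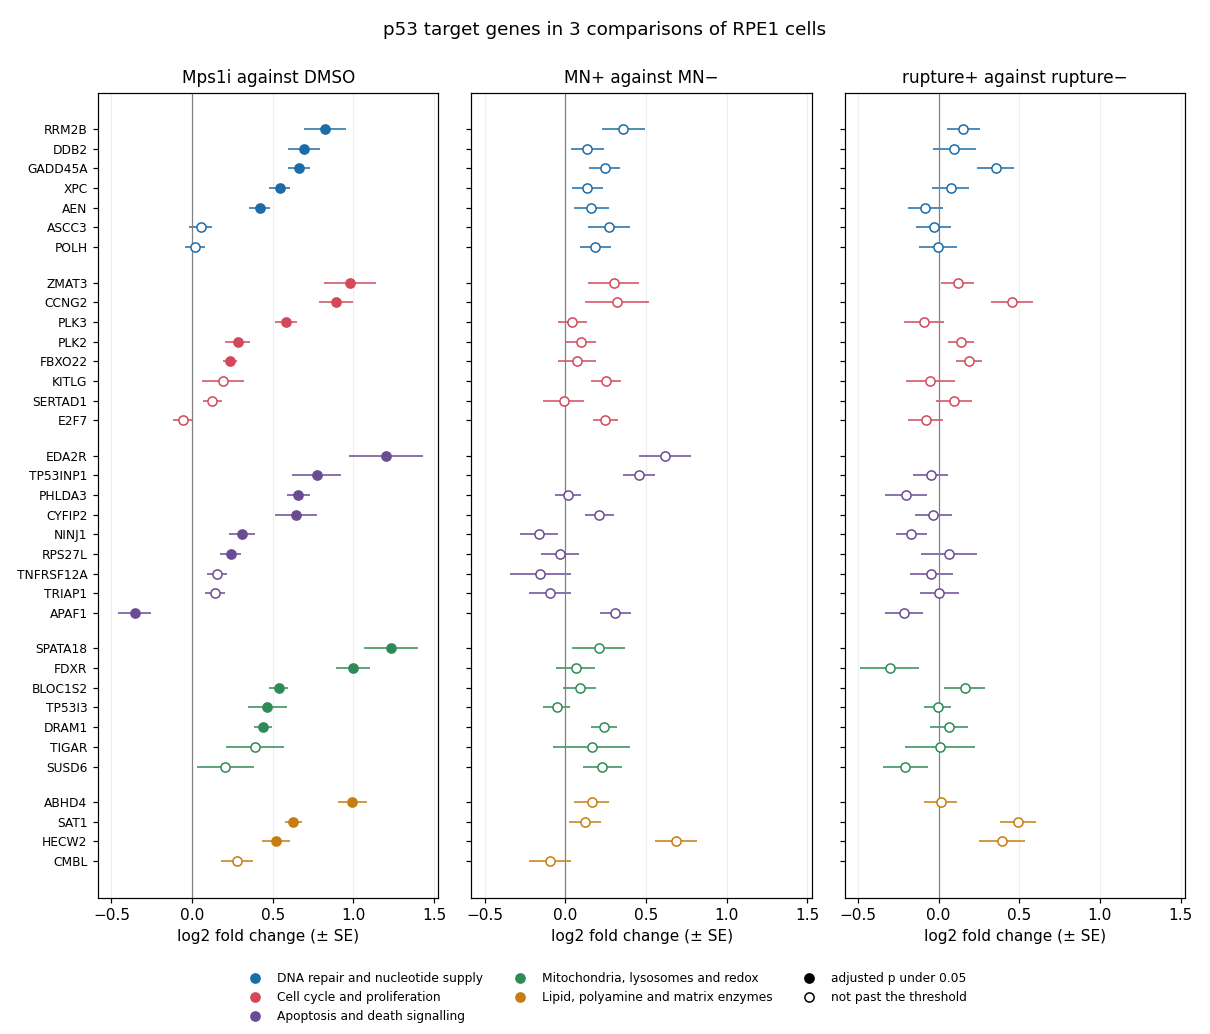
Log2 fold change with its standard error (x axes) for each measured p53 target (rows, coloured by role) in the 3 comparisons, with filled points where the adjusted p was under 0.05. In Mps1i against DMSO 25 points are filled, and only APAF1 of these lies left of 0. No point is filled in the other panels, where HECW2 (0.69) and SAT1 (0.49) lie farthest right.

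Among the genes of DNA repair and nucleotide supply, 5 of 7 rose in Mps1i, against 6.32% of all genes. All 7 had a log2 fold change above 0 in MN+ against MN-, from 0.13 to 0.36, and 4 of 7 did in rupture+ against rupture-. RRM2B encodes the p53-inducible small subunit of ribonucleotide reductase, which supplies deoxynucleotides. It stood at 29.7, 30.4, 33.0 and 41.6 CPM in the DMSO libraries and at 47.2, 57.5, 62.2 and 71.3 CPM in Mps1i. It was at 35.6, 51.2, 55.6 and 55.7 CPM in MN- and at 58.7, 62.5, 64.9 and 68.1 CPM in MN+. In rupture- it was at 36.0, 37.9 and 41.6 CPM and in rupture+ at 40.2, 40.6 and 47.5 CPM. The first 2 pairs of groups did not overlap, whereas the rupture groups did. The log2 fold change was 0.82 (standard error 0.130, edgeR adjusted p = 0.00301) in Mps1i, 0.36 (standard error 0.134) in MN+ and 0.15 (standard error 0.102) in rupture+.

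GADD45A, a stress sensor of the growth arrest and DNA damage family, stood at 97.8, 99.0, 110.2 and 123 CPM in DMSO and 164, 166, 172 and 178 CPM in Mps1i. It was at 132, 134, 134 and 168 CPM in MN- and 154, 168, 172 and 178 CPM in MN+. The values were 175, 177 and 214 CPM in rupture- and 217, 230.3 and 278 CPM in rupture+. DMSO and Mps1i were apart, as were rupture- and rupture+, and 1 MN- library, that of 800 ms in experiment 1, reached into the MN+ range. The log2 fold change was 0.66 (standard error 0.0676, edgeR adjusted p = 3.76e-04) in Mps1i, 0.24 (standard error 0.0946) in MN+ and 0.36 (standard error 0.115) in rupture+. Without that MN- library the MN+ value was 0.33.

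XPC and DDB2, which recognise damage for nucleotide excision repair, rose in Mps1i by log2 fold changes of 0.54 and 0.69 (edgeR adjusted p = 6.83e-04 and 0.00187). In MN+ their values were 0.14 and 0.13, and in rupture+ 0.0747 and 0.0976. AEN, an exonuclease linked to apoptosis, rose in Mps1i by 0.42 (edgeR adjusted p = 0.00245). POLH, the polymerase that copies past ultraviolet lesions, and ASCC3, a helicase of alkylation repair, did not pass the test in Mps1i, at 0.0189 and 0.0525. Their values in MN+ against MN- were larger, at 0.19 (standard error 0.0948) and 0.27 (standard error 0.130), and higher in all 4 pairs of MN+ and MN- libraries from the same well, in which the pulse lengths of the groups were opposite.

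Among the genes of the cell cycle and proliferation, 5 of 8 rose in Mps1i, against 6.32% of all genes. In MN+ against MN-, 7 of 8 had a log2 fold change above 0. CCNG2 encodes cyclin G2, an atypical cyclin linked to arrest, and was among the 5 members that were higher in every rupture+ library. Its values were 9.05, 9.94, 12.4 and 12.6 CPM in DMSO and 19.02, 20.7, 20.9 and 21.3 CPM in Mps1i. In MN- they were 18.8, 19.4, 24.8 and 25.6 CPM and in MN+ 20.5, 21.3, 31.7 and 37.1 CPM. Rupture- libraries held 8.71, 9.72 and 11.1 CPM and rupture+ libraries 13.3, 13.6 and 13.7 CPM. The MN groups overlapped, since both libraries of experiment 2 in MN+ lay below those of experiment 1 in MN-, while the other groups were apart. CCNG2 rose in Mps1i by 0.89 (standard error 0.105, edgeR adjusted p = 5.86e-04) on the log2 scale, and the differences were 0.32 (standard error 0.197) in MN+ and 0.46 (standard error 0.130) in rupture+. It reached the minimum of counts in 1 rupture- and all 3 rupture+ libraries.

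ZMAT3, an RNA-binding zinc finger protein with the decamer pair shown above, had 32.7, 34.6, 47.7 and 51.3 CPM in DMSO and 63.8, 77.3, 88.0 and 99.1 CPM in Mps1i. It had 90.1, 94.6, 99.2 and 126 CPM in MN- and 101, 112, 126 and 166 CPM in MN+. The rupture set held 48.2, 57.9 and 60.5 CPM in rupture- and 58.2, 60.5 and 62.2 CPM in rupture+. Only DMSO and Mps1i did not overlap, although MN+ was above MN- in all 4 pairs from the same well. ZMAT3 rose by 0.98 (standard error 0.160, edgeR adjusted p = 0.00346) in Mps1i and differed by 0.30 (standard error 0.159) in MN+ and 0.12 (standard error 0.1002) in rupture+.

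PLK3 and PLK2, Polo-like kinases induced by stress, rose in Mps1i by 0.58 and 0.28 (edgeR adjusted p = 5.86e-04 and 0.0384). The PLK2 call was lost on leaving out any 1 library except the DMSO libraries of experiment 2, with adjusted p from 0.0580 to 0.0857. FBXO22, a substrate adaptor of an SCF ubiquitin ligase, rose by 0.23 (standard error 0.0440, edgeR adjusted p = 0.00740), a call lost without experiment 2 (adjusted p = 0.0901), and stood at 46.5, 48.3 and 49.4 CPM in rupture- and 52.9, 55.6 and 55.6 CPM in rupture+. In the rupture set these groups did not overlap, at a log2 fold change of 0.19 (standard error 0.0811). KITLG, the ligand of the receptor KIT, SERTAD1, a regulator of Cdk4, and E2F7, a repressor of E2F targets, did not pass the test in Mps1i, at 0.19, 0.13 and -0.0562. E2F7 was at 72.8, 78.7, 78.9 and 82.2 CPM in MN- and 84.5, 90.7, 97.3 and 98.8 CPM in MN+, which did not overlap, and its log2 fold change there was 0.25 (standard error 0.0771). DESeq2 with the experiment as a block called it in MN+ (adjusted p = 0.0249).

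The group of apoptosis and death signalling was mixed. Of its 9 measured members, 6 rose and 1 fell in Mps1i, against 6.32% and 5.76% of all genes. A log2 fold change above 0 was seen in 5 in MN+ against MN-, and in 2 of 8 in rupture+ against rupture-. EDA2R, the ectodysplasin A2 receptor of the TNF receptor superfamily, was low, at 1.78, 2.14, 2.30 and 3.17 CPM in DMSO and 3.60, 4.50, 6.68 and 6.83 CPM in Mps1i. It was at 5.77, 5.84, 6.61 and 7.46 CPM in MN- and 8.48, 8.50, 9.68 and 12.7 CPM in MN+. Neither pair of groups overlapped, and the log2 fold changes were 1.203 (standard error 0.228, edgeR adjusted p = 0.00746) in Mps1i and 0.62 (standard error 0.162) in MN+, where DESeq2 with the experiment as a block called it (adjusted p = 0.00377). However, EDA2R reached the minimum of counts in 0 DMSO and 2 Mps1i libraries, and in 1 MN- and 2 MN+ libraries. Its presence thus leans towards a rise in both sets.

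TP53INP1, a p53 co-factor of the stress response, had 14.1, 16.3, 17.7 and 23.4 CPM in DMSO and 24.5, 29.6, 31.6 and 36.7 CPM in Mps1i. MN- libraries held 34.0, 39.6, 40.6 and 42.3 CPM and MN+ libraries 47.8, 51.8, 55.8 and 59.9 CPM. The level was 18.5, 19.9 and 21.1 CPM in rupture- and 17.9, 19.2 and 20.5 CPM in rupture+. The gene was apart in the first 2 comparisons, and the rupture groups overlapped with all 3 rupture+ libraries below their matched rupture- library. Its log2 fold change was 0.77 (standard error 0.152, edgeR adjusted p = 0.00911) in Mps1i, 0.46 (standard error 0.0982) in MN+ and -0.0481 (standard error 0.109) in rupture+. In MN+ it was called by edgeR with the well as the block (adjusted p = 0.0425) and by DESeq2 with the experiment as a block (adjusted p = 0.00146).

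APAF1, the scaffold of the apoptosome, was the single member that fell in Mps1i, and it is described because of that direction. Its values were 18.3, 19.2, 20.9 and 24.8 CPM in DMSO and 14.4, 15.8, 16.97 and 17.8 CPM in Mps1i, a log2 fold change of -0.36 (standard error 0.102, edgeR adjusted p = 0.0451). The groups did not overlap, but the call was lost on leaving out any 1 library except the 200 ms DMSO library of experiment 2, with adjusted p from 0.0543 to 0.108. In the MN set it was at 20.7, 24.5, 24.7 and 27.3 CPM in MN- and 28.5, 30.01, 30.05 and 31.9 CPM in MN+, with all MN+ libraries higher, and the log2 fold change there was 0.31 (standard error 0.0960). In rupture+ it was lower in all 3 pairs, at -0.21 (standard error 0.120).

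NINJ1, a membrane protein of plasma membrane rupture, and TNFRSF12A, the TWEAK receptor, were at the low end in the sorted comparisons. NINJ1 had 58.3, 63.2, 70.1 and 74.1 CPM in DMSO and 73.6, 79.7, 87.2 and 88.5 CPM in Mps1i. It had 74.3, 84.8, 92.7 and 107 CPM in MN- and 72.7, 77.9, 78.6 and 91.4 CPM in MN+, and 97.5, 104 and 117 CPM in rupture- and 86.9, 94.2 and 102 CPM in rupture+. Every pair of groups overlapped, with Mps1i above DMSO in all 4 pairs of the same experiment and pulse length and MN+ below MN- in all 4 pairs from the same well. NINJ1 rose in Mps1i by 0.31 (standard error 0.0805, edgeR adjusted p = 0.0309), and its values were -0.16 (standard error 0.116) in MN+ and -0.17 (standard error 0.0969) in rupture+. The call in Mps1i was lost (adjusted p from 0.0525 to 0.0801) without either DMSO library of experiment 2, either 800 ms Mps1i library, or the 200 ms Mps1i library of experiment 1.

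TNFRSF12A stood at 541, 549, 592 and 645 CPM in DMSO and 622, 627, 643 and 698 CPM in Mps1i. It was at 477, 653, 690.1 and 760.0 CPM in MN- and 422, 490.0, 656 and 750.1 CPM in MN+, and at 571, 571 and 752 CPM in rupture- and 513, 658 and 664 CPM in rupture+. All 3 pairs of groups overlapped. The log2 fold change in Mps1i was 0.15 (standard error 0.0596, edgeR adjusted p = 0.116), which passed with the experiment as a block (edgeR adjusted p = 0.0272), without the 800 ms DMSO library of experiment 1 (0.0396) and without experiment 1 (0.00200). In MN+ it was -0.16 (standard error 0.190) and in rupture+ -0.0448 (standard error 0.132).

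PHLDA3, which blocks the membrane binding of Akt, and CYFIP2, a subunit of the actin-regulating WAVE complex, rose in Mps1i by 0.66 and 0.65 (edgeR adjusted p = 4.90e-04 and 0.0101). RPS27L, a relative of ribosomal protein S27, rose by 0.24 (standard error 0.0659, edgeR adjusted p = 0.0380). That call was lost (adjusted p from 0.0515 to 0.0953) without either 800 ms Mps1i library, the 200 ms Mps1i or DMSO library of experiment 2, or the 800 ms DMSO library of experiment 1. Its reads may be shared in part with RPS27, so its value is less certain. TRIAP1, a small inhibitor of apoptosis, did not pass, at 0.14. In MN+ and rupture+ the values were 0.0168 and -0.20 for PHLDA3, 0.21 and -0.0335 for CYFIP2, -0.0313 and 0.0660 for RPS27L, and -0.0957 and 0.00513 for TRIAP1.

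Of the 7 genes of mitochondria, lysosomes and redox balance, 5 rose in Mps1i, against 6.32% of all genes. SPATA18, a protein of mitochondrial quality control, had the largest log2 fold change of all members in Mps1i, 1.23 (standard error 0.167, edgeR adjusted p = 0.00142). It reached the minimum of counts in 0 DMSO and 2 Mps1i libraries, and in 1 MN- and 2 MN+ libraries, so its presence leans towards a rise in both sets. Its levels were low, at 1.96, 2.18, 2.65 and 3.09 CPM in DMSO and 4.86, 5.11, 6.32 and 6.88 CPM in Mps1i, and the groups were apart. The MN groups overlapped, with 4.43, 4.47, 5.90 and 6.92 CPM in MN- and 5.999, 6.19, 6.34 and 6.62 CPM in MN+. There, the log2 fold change was 0.21 (standard error 0.164), with 0.54 in experiment 1 and -0.0674 in experiment 2.

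FDXR, the ferredoxin reductase of mitochondria, was at 16.6, 17.4, 20.0 and 21.1 CPM in DMSO and 32.5, 34.97, 38.3 and 44.5 CPM in Mps1i. It was at 39.0, 44.2, 49.7 and 54.9 CPM in MN- and 45.6, 46.4, 47.0 and 57.3 CPM in MN+. In rupture- it was at 18.8, 19.1 and 20.7 CPM, and in rupture+ at 10.9, 17.9 and 18.7 CPM. Mps1i was above DMSO throughout, the MN groups overlapped, and the rupture+ libraries were all below the rupture- libraries, with that of experiment 3 the lowest. FDXR rose in Mps1i by 1.00 (standard error 0.106, edgeR adjusted p = 4.14e-04), and its values were 0.0631 (standard error 0.119) in MN+ and -0.30 (standard error 0.183) in rupture+. Without the 800 ms MN+ library of experiment 1, the MN+ value was -0.0192.

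DRAM1, a lysosomal membrane protein of autophagy, stood at 27.3, 27.4, 28.6 and 29.6 CPM in DMSO and 34.9, 38.0, 39.8 and 40.2 CPM in Mps1i. MN- and MN+ libraries held 34.9, 35.5, 36.2 and 38.5 CPM and 40.5, 41.2, 43.2 and 46.7 CPM. In the rupture set the values were 31.9, 34.2 and 40.4 CPM in rupture- and 33.7, 36.5 and 41.3 CPM in rupture+. The groups were apart in the first 2 sets and overlapped in the third. DRAM1 rose in Mps1i by 0.44 (standard error 0.0579, edgeR adjusted p = 0.00123) and differed by 0.24 (standard error 0.0790) in MN+ and 0.0658 (standard error 0.117) in rupture+.

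BLOC1S2, a subunit of complexes that position lysosomes, and TP53I3, a quinone oxidoreductase, rose in Mps1i by 0.54 and 0.47 (edgeR adjusted p = 4.45e-04 and 0.0277). The TP53I3 call was lost without either DMSO library of experiment 2 or either Mps1i library of experiment 1, with adjusted p from 0.0610 to 0.0748. TIGAR, a phosphatase that lowers glycolytic flux, and SUSD6, a membrane protein, did not pass, at 0.39 and 0.21. TIGAR passed without the 200 ms Mps1i library of experiment 1 (edgeR adjusted p = 0.0307). In TIGAR the log2 fold change in Mps1i was 0.0281 in experiment 1 and 0.66 in experiment 2 (edgeR interaction adjusted p = 0.356). In rupture+ the values were 0.16 for BLOC1S2, -0.00633 for TP53I3, 0.00835 for TIGAR and -0.21 for SUSD6. SUSD6 reached the minimum of counts in 3 rupture- and 1 rupture+ libraries, so its presence there leans towards a fall.

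The remaining enzymes were ABHD4, SAT1, HECW2 and CMBL, of which the first 3 rose in Mps1i, against 6.32% of all genes. ABHD4, a hydrolase of N-acyl phospholipids, was at 22.8, 23.6, 26.3 and 27.3 CPM in DMSO and 42.4, 48.4, 52.0 and 56.4 CPM in Mps1i. It was at 42.3, 42.3, 47.0 and 54.5 CPM in MN- and 46.3, 49.2, 56.2 and 57.2 CPM in MN+, and at 38.7, 39.5 and 40.1 CPM in rupture- and 34.8, 40.7 and 43.96 CPM in rupture+. Only DMSO and Mps1i were apart. The rise in Mps1i was 0.99 (standard error 0.0894, edgeR adjusted p = 2.09e-04), and the values in MN+ and rupture+ were 0.16 (standard error 0.108) and 0.0137 (standard error 0.103).

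SAT1, the rate-limiting acetyltransferase of polyamine breakdown, had 98.7, 99.6, 101 and 102 CPM in DMSO and 144.7, 146, 161 and 169 CPM in Mps1i. The MN set held 132, 137, 144 and 149 CPM in MN- and 141, 142, 144 and 183 CPM in MN+. The rupture set held 97.5, 116 and 119 CPM in rupture- and 136, 165 and 167 CPM in rupture+. DMSO and Mps1i were apart and so were the rupture groups, while 3 of the 4 MN+ libraries lay within the MN- range. SAT1 rose in Mps1i by 0.63 (standard error 0.0523, edgeR adjusted p = 1.43e-04) and differed by 0.12 (standard error 0.0974) in MN+, or by 0.0227 without the 800 ms MN+ library of experiment 1. In rupture+ its log2 fold change was 0.49 (standard error 0.110, edgeR adjusted p = 0.373), with an edgeR adjusted p of 0.0801 with the experiment as a block. DESeq2's likelihood ratio test called SAT1 there (adjusted p = 0.0118, and 1.07e-04 with the block).

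HECW2, a HECT ubiquitin ligase, stood at 4.83, 5.12, 5.21 and 5.36 CPM in DMSO and 6.90, 7.22, 7.36 and 7.95 CPM in Mps1i. It was at 6.15, 6.38, 6.59 and 8.07 CPM in MN- and 10.2, 10.4, 10.8 and 12.5 CPM in MN+. In rupture- it was at 10.7, 14.7 and 15.2 CPM and in rupture+ at 17.3, 17.9 and 18.3 CPM. Its groups were apart in the same direction in all 3 comparisons. Taken singly, every library was higher in 10.1% (Mps1i), 2.43% (MN+) and 9.58% (rupture+) of all genes. The share of all genes for all 3 together was not counted. However, HECW2 reached the minimum of counts in 1 DMSO and 2 Mps1i libraries, and in 1 MN- and 2 MN+ libraries. Its presence in both sets therefore leans towards a rise. HECW2 rose in Mps1i by 0.52 (standard error 0.0891, edgeR adjusted p = 0.00440), a call lost without experiment 2 (adjusted p = 0.0928). In MN+ its log2 fold change was 0.69 (standard error 0.130), in rupture+ 0.40 (standard error 0.143), and in MN+ it was called by DESeq2's likelihood ratio test (adjusted p = 0.00598) and by edgeR with the well as the block (adjusted p = 0.0396). CMBL, a hydrolase, did not pass in Mps1i, at 0.28, except without the 800 ms DMSO library of experiment 1 (edgeR adjusted p = 0.0362) and in limma-voom (0.0440) or DESeq2 (0.0459), and was -0.0940 in MN+.

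**Figure D2:**
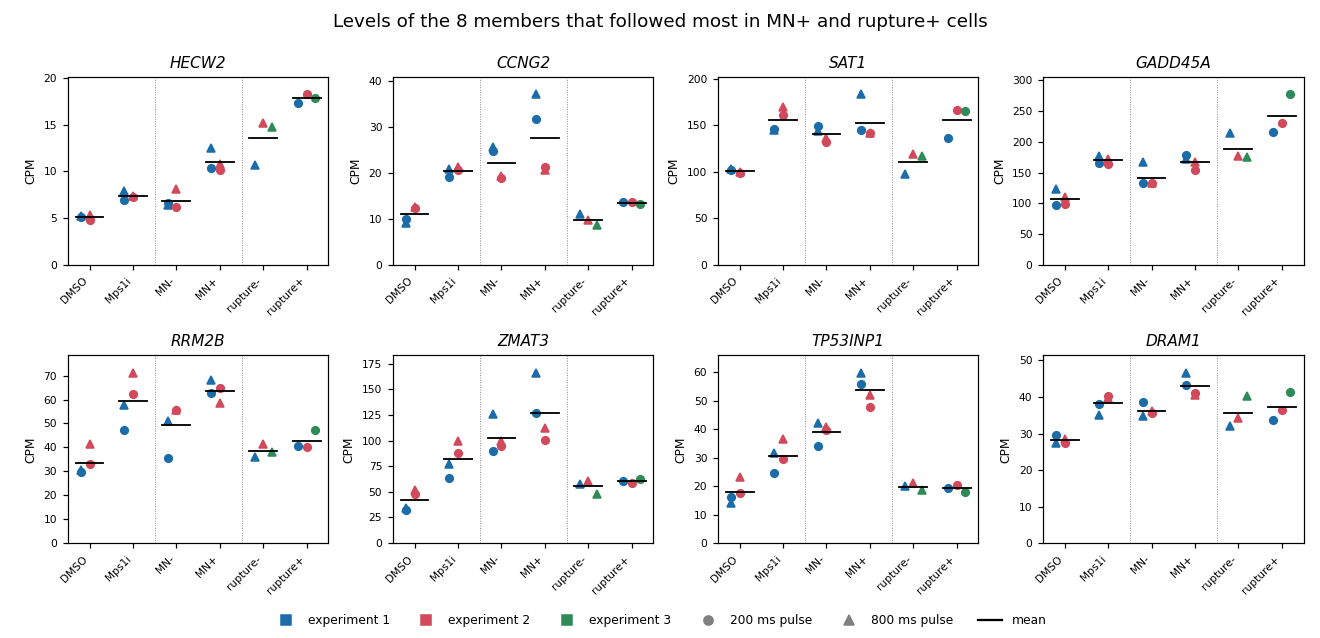
CPM (y axes, from 0) in each library of the 6 groups for the 8 members with the highest mean of the MN+ and rupture+ log2 fold changes, coloured by experiment and shaped by pulse length, with group means as lines and dotted lines between sets. HECW2 is higher in Mps1i, MN+ and rupture+ than in each matched control group without overlap, while TP53INP1 lies between 17.9 and 21.1 CPM in the rupture libraries. The presence of HECW2 in the Mps1i and MN sets leans towards a rise, through the minimum of counts.

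**Figure D3:**
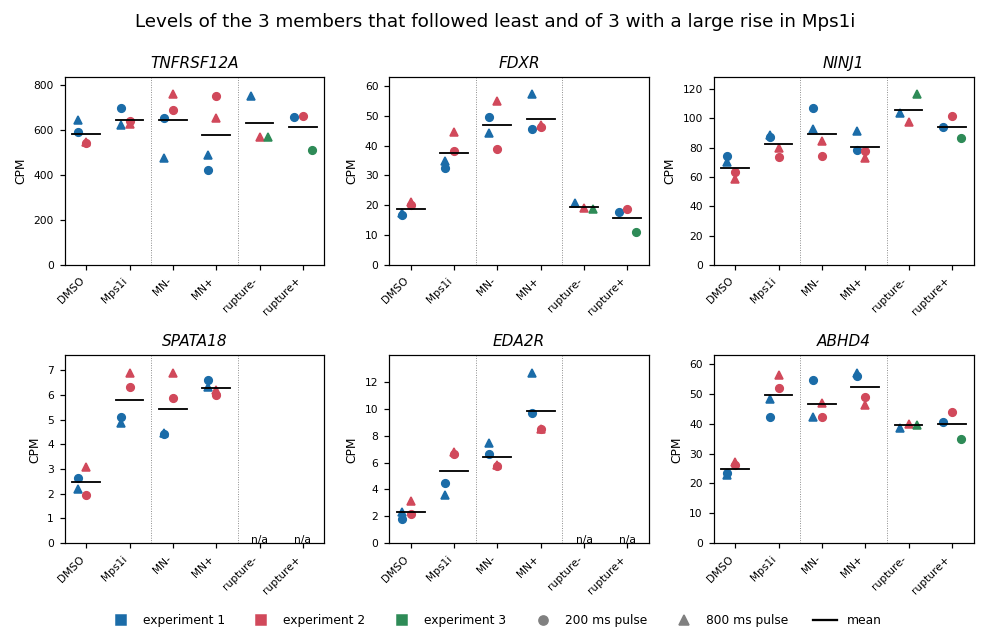
CPM (y axes, from 0) in each library for the 3 members with the lowest mean of the MN+ and rupture+ log2 fold changes (TNFRSF12A, FDXR and NINJ1) and for SPATA18, EDA2R and ABHD4, among the 5 that rose most in Mps1i, with colours, shapes and lines by experiment, pulse length and group mean. SPATA18 and EDA2R were not in the rupture table (n/a). Both reached the minimum of counts in 0 DMSO and 2 Mps1i libraries, so their presence in the Mps1i set leans towards a rise. FDXR is higher in every Mps1i than in every DMSO library and overlaps between MN- and MN+.

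To rank how far the members followed in the sorted cells, the log2 fold changes of MN+ against MN- and of rupture+ against rupture- were averaged for the 32 members in all 3 tables. This mean was highest in HECW2 (0.54), CCNG2 (0.39), SAT1 (0.31) and GADD45A (0.30). RRM2B (0.26), ZMAT3 (0.21), TP53INP1 (0.21) and DRAM1 (0.15) came next. It was lowest in NINJ1 (-0.17), FDXR (-0.12) and TNFRSF12A (-0.10). HECW2 and, further down, SUSD6 reached the minimum of counts in 1 MN- and 2 MN+ libraries, so their MN values lean upwards. CCNG2 reached it in 1 rupture- and 3 rupture+ libraries, so its rupture value leans upwards. SUSD6 reached it in 3 rupture- and 1 rupture+ libraries, so its rupture value leans downwards. Without these 3 members the order began with SAT1, GADD45A, RRM2B and ZMAT3, and 22 of 29 were above 0. Over all 32, the mean was above 0 in 25 members and below 0 in 7, and 14 members had values above 0 in all 3 comparisons. A further 12 were above 0 in MN+ and below 0 in rupture+, among them TP53INP1, APAF1 and FDXR. Over all genes, 5179 of 10577 were above 0 in Mps1i, 5280 of 10594 in MN+ and 4672 of 9461 in rupture+. For all genes, signs over the comparisons together and the mean were not counted.

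The order differed from that of the Mps1i changes. FDXR, ABHD4 and ZMAT3 had the largest Mps1i rises among these 32, and in MN+ their values came to 6.33%, 16.6% and 30.7% of the Mps1i log2 fold change. In HECW2 the value was 132% in MN+ and 76.3% in rupture+, and in SAT1 it was 19.5% and 78.3%. Across the 32 members, Pearson's r was 0.19 between the Mps1i and MN log2 fold changes, 0.28 between Mps1i and rupture, and 0.33 between MN and rupture. These 3 values describe genes of the same libraries, which are not independent replicates. The 3 comparisons share no libraries.

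**Figure D4:**
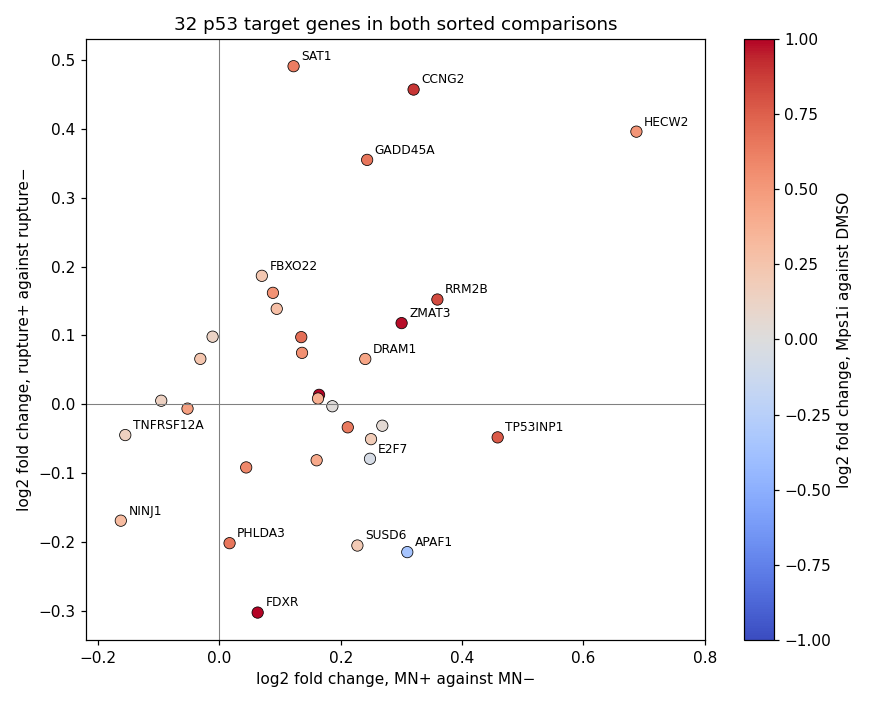
Log2 fold change in MN+ against MN- (x axis) and in rupture+ against rupture- (y axis) for the 32 members in all 3 tables, coloured by the log2 fold change in Mps1i against DMSO. HECW2, CCNG2, SAT1 and GADD45A lie at the upper right, NINJ1 at the lower left, and FDXR, with a Mps1i value of 1.00, at the bottom.

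The MN values were larger in experiment 1 than in experiment 2 for 25 of the 35 members, while the Mps1i values were larger in experiment 2 for 23 of 35. RRM2B was 0.61 and 0.15 in MN+ against MN- in experiments 1 and 2, and TIGAR 0.54 and -0.0753. HECW2 was 0.81 and 0.57, and EDA2R 0.66 and 0.55. Values were above 0 in both experiments in 23 members in the MN set and in 30 in the Mps1i set. edgeR's test of the interaction of condition and experiment called no member in either set, and 0.359% of all genes in the Mps1i set and 0.00944% in the MN set. At an unadjusted p under 0.05 there were 7 members (20%) in the Mps1i set, against 12.6% of all genes, and 2 (5.71%), TIGAR and SPATA18, in the MN set, against 3.11%. The lowest adjusted p was 0.0683, for PLK2, whose rise in Mps1i was 0.43 in experiment 1 and 0.15 in experiment 2.

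**Figure D5:**
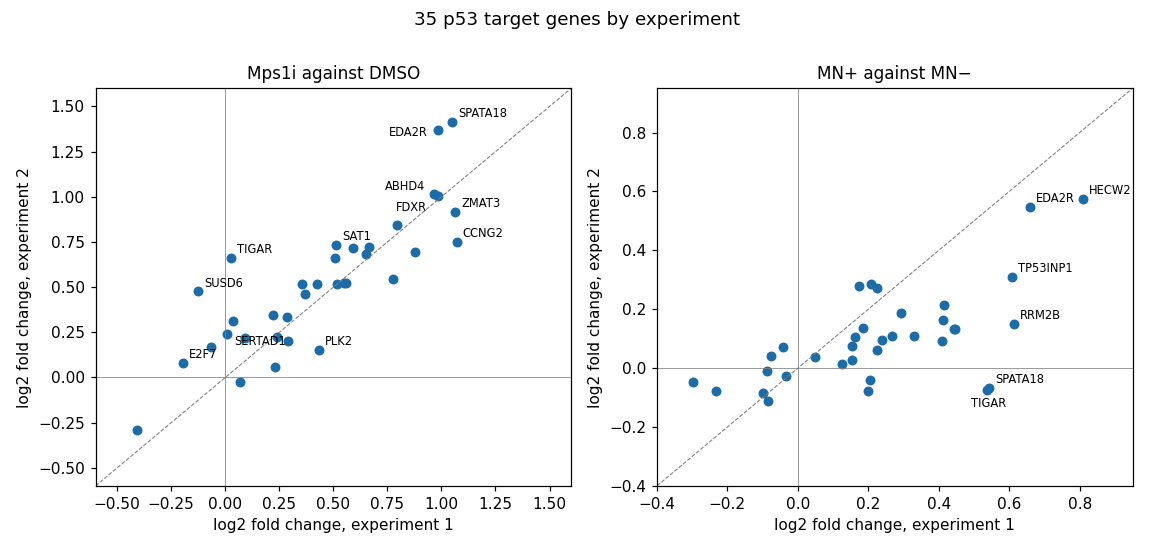
Log2 fold change in experiment 1 (x axes) and experiment 2 (y axes) of each of the 35 members, for Mps1i against DMSO (left) and MN+ against MN- (right), with the line of equal change dashed. In the right panel 25 points lie below the line, and TIGAR and SPATA18 are above 0 in experiment 1 and below 0 in experiment 2.

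Since pulse length and rupture coincide, the pulse itself was tested in the other sets, with the condition as a term. No member was called between 800 and 200 ms in either set, with 4 at an unadjusted p under 0.05 in the Mps1i set and 0 in the MN set. In the Mps1i set 31 of 35 members were above 0, with a median log2 difference of 0.0978, against 5333 of 10577 genes and a median of 4.27e-04. In the MN set 26 of 35 were above 0, with a median of 0.0689, against 4863 of 10594 genes and a median of -0.00680. The values of HECW2, CCNG2, SAT1 and GADD45A were 0.10, 0.0222, 0.0228 and 0.16 in the Mps1i set. In the MN set they were 0.18, 0.0795, 0.0935 and 0.11. FDXR, which was lower in every rupture+ library, had 0.12 in the Mps1i set and 0.17 in the MN set. The rupture+ libraries had the shorter pulse.

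Set side by side over the 6 groups, with all libraries brought to 1 normalization over the genes that the tables share, DMSO was the lowest group in 24 of the 32 members and MN+ the highest in 17. The sets differ in date and handling, so this order is a description. ZMAT3 had group means of 42.2 CPM in DMSO, 83.5 in Mps1i, 103 in MN- and 127 in MN+, but 55.1 in rupture- and 60.5 in rupture+. In FDXR, CYFIP2, CCNG2, DDB2 and RPS27L, which rose in Mps1i, a rupture group was the lowest of all 6. HECW2 ran the other way, from 5.21 CPM in DMSO to 11.04 in MN+, 13.4 in rupture- and 17.9 in rupture+. GADD45A was also highest in rupture+, at 242 CPM against 109 in DMSO.

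The p53 pathway genes outside the list also rose for the most part in Mps1i. Of 18 chosen by name with earlier results of these data known, 15 were measured there. Of these, 13 rose and 1 fell, against 6.32% and 5.76% of all genes. SESN2, a sestrin of the stress response, rose on the log2 scale by 0.79 (standard error 0.0645, edgeR adjusted p = 1.43e-04), and TNFRSF10D, a decoy death receptor, by 0.78 (standard error 0.0660, edgeR adjusted p = 1.43e-04). The 1 that fell was MDM4, an inhibitor of p53, at -0.27 (edgeR adjusted p = 0.0491), named after its value was seen. In MN+ against MN- 15 of 16 were above 0 with a median of 0.19, and in rupture+ against rupture- 8 of 14 with a median of 0.0121, and none was called in either.

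Cell cycle genes also changed in Mps1i, mostly downwards, while most members rose. All 12 genes of G2 and mitosis fell there, against 5.76% of all genes, with a median of -0.47 on the log2 scale. ASPM, a spindle pole protein, was at -0.50 and UBE2C, a ubiquitin-conjugating enzyme of mitotic exit, at -0.54 (edgeR adjusted p = 1.59e-04 and 2.55e-04). In MN+ 6 of the 12 were below 0, and in rupture+ 10 of the 12 were above 0 with a median of 0.20, none of them called. Of 12 genes of the G1/S transition, 1 fell in Mps1i, CDT1, a replication licensing factor, at -0.38 (edgeR adjusted p = 0.0117). With the experiment as a block 6 fell and 1 rose, while 11.8% of all genes fell and 12.7% rose, against 5.76% and 6.32% without it. In MN+ 11 of the 12 were below 0, with a median of -0.13, and in rupture+ 10 of the 12 were, none called. The part of cell cycle position in the p53 target values was not tested.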

How the data were processed

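RNA was amplified with the SMART-Seq v4 kit, which does not keep strand, so reads of overlapping genes on opposite strands cannot be separated. The authors deposited estimated counts per gene, rounded to whole numbers, from Salmon (version 1.2 in the submitters' processing notes) on hg38 with GC-bias correction, imported with tximeta and summarised to genes. Genes under 700 counts in all but 1 library had been removed, and the lowest second-highest count is 700 in each table. The labels list 29 samples, some as parts of 1 library, and the tables hold 22 libraries.

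Each table was fitted apart in edgeR 4.0.16 (quasi-likelihood test, TMM, condition alone) under R 4.3.3, with Benjamini-Hochberg adjustment. Log2 CPM used a prior count of 2. Standard errors were derived from the F statistic as |log2 fold change|/√F. Alternatives were DESeq2 size factors, filterByExpr, DESeq2 1.42.0 (likelihood ratio test), limma-voom (limma 3.58.1), the experiment, the pulse length or the well as a term, and leaving out each library or experiment. The block in the limma-voom and DESeq2 tests was added after seeing the data. Fits were tested on simulated data. Figures and site searches used Python 3.11.15 and GENCODE v44.

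Libraries of one experiment share a date in the labels, which pairs them. Their deviations from group means correlated with r from 0.0279 to 0.380 in the Mps1i set, from -0.0133 to 0.659 in the MN set and from 0.00951 to 0.229 in the rupture set.

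The members with their roles, the other lists and the naming rule were chosen with earlier results of these data known. Values in every library are given for the 8 members with the highest mean of the MN+ and rupture+ log2 fold changes, the 3 with the lowest and the 5 with the largest Mps1i change, and up to 2 genes per list outside the members are those with the smallest p in Mps1i. APAF1, E2F7, FBXO22 and MDM4 were added after their values were seen.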

Additional observations from a re-analysis of the deposited data

Results flagged for a closer look

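In 140 groups of 4 libraries (35 members in DMSO, Mps1i, MN- and MN+), 3 held a library far from the others of its group, and chance alone marks about 1 group in 20. All 3 were 800 ms libraries of experiment 1 in the MN set. SAT1 was at 183 CPM in MN+, where the others lay between 141 and 144 CPM. FDXR was at 57.3 CPM in MN+, where the others lay between 45.6 and 47.0 CPM. GADD45A was at 168 CPM in MN-, where the others lay between 132 and 134 CPM. Without that library the log2 fold change in MN+ against MN- was 0.0227 for SAT1, -0.0192 for FDXR and 0.33 for GADD45A, against 0.12, 0.0631 and 0.24 with it, and none was called by edgeR either way (adjusted p = 0.939, 0.964 and 0.489 without it).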

How the results depend on the processing

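In Mps1i against DMSO the number of members called stayed between 20 and 30 under 18 alternatives, from 20 to 24 without single libraries, and was 30 without experiment 1 and 22 without experiment 2. Calls over all 10577 genes moved too, from 1277 with all libraries to between 717 and 1219 without single libraries. They numbered 2798 without experiment 1 and 524 without experiment 2. Of the 25 called, 18 were called under all 18 alternatives. APAF1, NINJ1, PLK2, RPS27L and TP53I3 lost the call without single libraries, as given above. The first 4 also lost it with the pulse length as a term (edgeR adjusted p = 0.0633, 0.0513, 0.0614 and 0.0513), APAF1 without experiment 1 (0.0805) and in limma-voom (0.0569), and RPS27L (0.0662), FBXO22 (0.0901) and HECW2 (0.0928) without experiment 2. The cause was not tested. With the experiment as a replicate block 26 members were called, and in edgeR the block changed no other call than that of TNFRSF12A. Without experiment 1, CMBL, KITLG, SERTAD1, SUSD6, TIGAR and TNFRSF12A gained a call (edgeR adjusted p from 0.00200 to 0.0441). That fit called 2798 of all 10577 genes, against 1277 with all libraries. In MN+ against MN-, where edgeR called 0, DESeq2's likelihood ratio test called 1 (HECW2), the same test with the experiment as a replicate block 4 (HECW2, TP53INP1, EDA2R and E2F7), and edgeR with the well as a replicate block 2 (HECW2 and TP53INP1). Of these, HECW2 and EDA2R reached the minimum of counts in 1 MN- and 2 MN+ libraries, so their presence leans towards MN+. In rupture+ against rupture- DESeq2 called 1 without and 1 with the block (SAT1). Between 25 and 29 members were above 0 in MN+ and between 15 and 20 in rupture+ over the alternatives. No called value changed sign, while uncalled ones did in 23 of 664 estimates in MN+, 47 of 512 in rupture+ and 8 of 630 in Mps1i. The tables hold only genes with 700 or more counts in at least 1 pair of libraries, which limits what can be seen of weakly expressed members.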
